A study of Mus musculus with 12 samples.

Results

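The genes described here are 50 members of the cell cycle machinery, chosen by name, out of 24692 entries in the deposited expression table. They comprise 13 genes of DNA replication, 18 genes of mitosis, 11 cyclins and cyclin-dependent kinases and 8 inhibitors and regulators of the E2F and retinoblastoma pathway. Their RNA was measured in 4 cell populations isolated by flow cytometry from back skin, with 3 libraries per population: dermal papilla (libraries 1, 2 and 4), dermal sheath (4, 5 and L1), hair follicle dermal stem cells (1, 2 and 4) and interfollicular dermis (1, 2 and 6). The dermal papilla is a signalling cluster of mesenchymal cells at the base of the follicle, enclosed and continued upwards by the dermal sheath. The dermal stem cells belong to the same follicle mesenchyme, and interfollicular dermis lies outside the follicles. The study's title presents sheath and papilla cells as progeny of the stem cells. All 12 libraries came from male mice of postnatal day 26 to 27 at early anagen, the onset of hair growth. All animals carried the Sox2:GFP and aSMA:dsRed reporters, which mark Sox2-expressing and smooth muscle actin-expressing cells. The labels name neither the sorting antibodies nor the number of animals per library.

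A dividing cell passes through a growth phase, a phase of DNA replication, a second growth phase and mitosis. D-type cyclins with the kinases Cdk4 and Cdk6 inactivate the retinoblastoma protein, which frees E2F factors to switch on replication genes. The mitosis genes are switched on later, and the CDK inhibitors of the Cip/Kip and INK4 families hold the cycle back. In a resting follicle few cells divide, and at the onset of hair growth division is best known from the epithelial hair matrix.

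Some libraries go against their labels, and this bears on every comparison below. Of all genes tested, 24.3% were higher and 19.6% lower in sheath than in stem cells. In stem cells against interfollicular dermis 17.9% were higher and 19.7% lower. In papilla 2.31% were higher than in stem cells, and 16.4% were higher and 33.4% lower than in sheath. All 12 fibroblast markers on a list of 12, led by Sparc, Col1a1 and Col3a1, were lower in sheath than in stem cells, and all 12 were higher in stem cells than in interfollicular dermis. The summed level of this list was 18640.1 to 32618 FPKM in papilla, 1231 to 2370.0 FPKM in sheath, 13744 to 18788 FPKM in stem cell and 957 to 2011 FPKM in interfollicular libraries. FPKM is the number of fragments scaled to transcript length and to sequencing depth, so levels can be compared between genes. Pdgfra, a receptor that marks dermal fibroblasts, was listed at 28.3, 28.9 and 47.4 FPKM in papilla, 4.22, 1.52 and 3.95 FPKM in sheath, 49, 48.9 and 70.6 FPKM in stem cell and 3.32, 2.24 and 4.95 FPKM in interfollicular libraries. Acta2, the smooth muscle actin gene behind one reporter, averaged 45.4 ± 35.8 FPKM in papilla, 49.3 ± 23.1 FPKM in sheath, 872 ± 26 FPKM in stem cells and 8.7 ± 2.6 FPKM in interfollicular dermis (SD, n = 3 each). The 10 sheath markers, led by Acta2, Myl9 and Tagln, were all lower in sheath than in stem cells. Of 14 papilla markers, led by Wif1, Crabp1 and Vcan, 3 were higher in papilla than in stem cells and 11 higher in papilla than in sheath. Sox2 itself stood at 0.882, 2.66 and 7.17 FPKM in papilla and at most 1.17 FPKM in any other library. Of the 14 keratinocyte markers, led by Krt10, Perp and Krt5, 9 were higher and 2, Krt1 and Krt10, lower in sheath than in stem cells. In papilla against sheath 2, again Krt1 and Krt10, were higher and 3 lower, no more than the shares of all genes. In stem cells against interfollicular dermis 1 keratinocyte marker, Krt1, was higher and 9 were lower. Trp63 from this list, a transcription factor of epidermal cells, averaged 16.1 ± 8.04 FPKM in papilla, 121 ± 24.2 FPKM in sheath, 15.5 ± 5.84 FPKM in stem cells and 89 ± 11.7 FPKM in interfollicular dermis. Of 13 hair matrix markers, led by Krt71, Cux1 and Krt35, 12 were tested, and 10 were higher in sheath than in stem cells and 10 lower in stem cells than in interfollicular dermis. Their summed level was 152 to 572 FPKM in papilla, 997 to 1134 FPKM in sheath, 166 to 319 FPKM in stem cell and 894 to 1161 FPKM in interfollicular libraries, while the hair keratin gene Krt85 was listed at 0 in all but 1 library. Shh, a signal of the hair matrix, averaged 2.16 ± 0.861 FPKM in sheath and 65.1 ± 21.5 FPKM in interfollicular dermis. The keratinocyte markers summed to 1516 to 4308 FPKM in papilla, 1903 to 2113 FPKM in sheath, 868 to 1628 FPKM in stem cell and 2019 to 2367 FPKM in interfollicular libraries. Krt10, a keratin of differentiating epidermis, stood at 1959, 2052 and 571 FPKM in papilla libraries 1, 2 and 4. The 9 immune markers found, led by Fcer1g, Cd68 and Tyrobp, summed to 1539, 681 and 47.8 FPKM in stem cell libraries 1, 2 and 4, against at most 415 FPKM in any other library. The 9 melanocyte markers, led by Dct, Mlana and Pmel, summed to 206 to 839 FPKM in papilla, 21.2 to 30.4 FPKM in sheath, 17.3 to 93.1 FPKM in stem cell and 172 to 975 FPKM in interfollicular libraries. The 9 endothelial and pericyte markers, led by Pecam1, Rgs5 and Cdh5, summed to 17.2 to 159 FPKM over the 12 libraries. The part of these other cell types in the cell cycle values was not tested. In such bulk samples, fewer cells of a type and less RNA per cell cannot be told apart. Whether the 3 libraries of a population stem from different animals is not stated, so the p-values reflect only how much these libraries vary, which can be technical variation.

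The promoters of 6 members are shown because the motif counts by role that follow refer to letters in these windows. They are RefSeq windows from 250 bases before to 50 bases after a start site on build GRCm38.p6, each on the strand of its gene. This site is where the gene span begins, except for Mki67. The Mki67 window was built on a site inside the gene span (135689784 to 135716450). Mcm2, Rrm1, Cdc20 and Mki67 had the largest F statistics of their role among the members with an entry, and Mcm6 and Cdk1 were added after their matches were seen. The windows lie at chr6:88898731-88899030 for Mcm2 (minus strand), chr7:102441445-102441744 for Rrm1 (plus), chr1:128359656-128359955 for Mcm6 (minus), chr4:118437294-118437593 for Cdc20 (minus), chr7:135716330-135716629 for Mki67 (minus) and chr10:69352863-69353162 for Cdk1 (minus). Capitals mark matches on either strand to the cell cycle homology region (CHR: TTTGAA or TTCGAA), the E2F motif (TTTCCCGC, TTTCGCGC, TTTGCCGC or TTTGGCGC) and the NF-Y box (CCAAT, which reads ATTGG on the other strand).
Mcm2: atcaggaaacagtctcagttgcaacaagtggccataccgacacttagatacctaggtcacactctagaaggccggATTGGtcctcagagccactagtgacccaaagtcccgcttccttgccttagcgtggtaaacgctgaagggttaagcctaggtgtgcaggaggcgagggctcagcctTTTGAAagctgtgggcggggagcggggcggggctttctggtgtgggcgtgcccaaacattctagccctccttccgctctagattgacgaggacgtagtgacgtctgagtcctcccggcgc
Rrm1: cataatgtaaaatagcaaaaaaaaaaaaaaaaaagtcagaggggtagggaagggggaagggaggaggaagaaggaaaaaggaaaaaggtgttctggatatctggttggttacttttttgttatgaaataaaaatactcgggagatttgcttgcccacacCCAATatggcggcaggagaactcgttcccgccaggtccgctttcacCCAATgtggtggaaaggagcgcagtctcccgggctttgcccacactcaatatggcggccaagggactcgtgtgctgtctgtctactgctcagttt
Mcm6: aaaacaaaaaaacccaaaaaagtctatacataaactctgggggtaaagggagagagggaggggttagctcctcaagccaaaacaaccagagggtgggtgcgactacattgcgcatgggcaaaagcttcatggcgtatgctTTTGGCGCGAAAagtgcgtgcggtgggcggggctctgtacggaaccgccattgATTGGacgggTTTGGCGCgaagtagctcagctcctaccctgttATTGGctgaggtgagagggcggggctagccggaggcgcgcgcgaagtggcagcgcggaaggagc
Cdc20: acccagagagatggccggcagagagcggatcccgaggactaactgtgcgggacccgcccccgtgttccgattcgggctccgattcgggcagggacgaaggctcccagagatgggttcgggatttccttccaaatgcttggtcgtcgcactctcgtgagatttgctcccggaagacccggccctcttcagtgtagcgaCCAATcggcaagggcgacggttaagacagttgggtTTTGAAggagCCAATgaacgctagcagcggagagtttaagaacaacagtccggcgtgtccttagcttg
Mki67: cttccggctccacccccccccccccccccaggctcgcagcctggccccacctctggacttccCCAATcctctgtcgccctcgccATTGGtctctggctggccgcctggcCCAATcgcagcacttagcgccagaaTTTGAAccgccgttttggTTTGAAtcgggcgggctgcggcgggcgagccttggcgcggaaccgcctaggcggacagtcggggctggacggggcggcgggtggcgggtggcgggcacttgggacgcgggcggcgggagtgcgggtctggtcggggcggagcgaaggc
Cdk1: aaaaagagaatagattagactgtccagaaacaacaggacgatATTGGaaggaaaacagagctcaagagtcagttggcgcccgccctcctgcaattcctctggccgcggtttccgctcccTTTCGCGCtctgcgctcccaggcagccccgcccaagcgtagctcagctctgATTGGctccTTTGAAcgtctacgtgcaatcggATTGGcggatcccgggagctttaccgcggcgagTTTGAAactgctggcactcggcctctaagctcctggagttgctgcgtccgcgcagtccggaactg

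In these windows the CHR stood 70 bases before the start of Mcm2, a replication gene, and 18 bases before the start of Cdc20. It stood 98 and 116 bases before that of Mki67, and 15 and 71 bases before that of Cdk1. For Mki67 these distances count from the site its window was built on, not from the end of its gene span. Mcm6 held E2F motifs 47, 106 and 110 bases before its start, of which the farther pair overlap on opposite strands. Rrm1 held neither a CHR nor an E2F motif in these letters, and a pair of NF-Y boxes.

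Of the 50 members, 38 had an entry in the promoter table. A CHR was present in 12 of 14 mitosis promoters (85.7%), 2 of 11 replication promoters (18.2%), 1 of 7 cyclin and kinase promoters and 0 of 6 inhibitor and E2F promoters, against 19.4% of all 27025 promoters. An E2F motif was present in 6 of 11 replication promoters (54.5%; Cdc6, Cdt1, Mcm3, Mcm5, Mcm6 and Mcm7), 1 of 14 mitosis promoters (Cdk1), 1 of 7 cyclin and kinase promoters (Cdk2) and 2 of 6 inhibitor and E2F promoters (Cdkn2a and Rbl1), against 2.32% of all promoters. NF-Y boxes were in 13 of 14 mitosis and 8 of 11 replication promoters, 3 of 7 cyclin and kinase promoters and 1 of 6 inhibitor and E2F promoters, against 37.9% of all promoters. A match describes letters in these windows and is not a measured site.

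**Figure D1:**
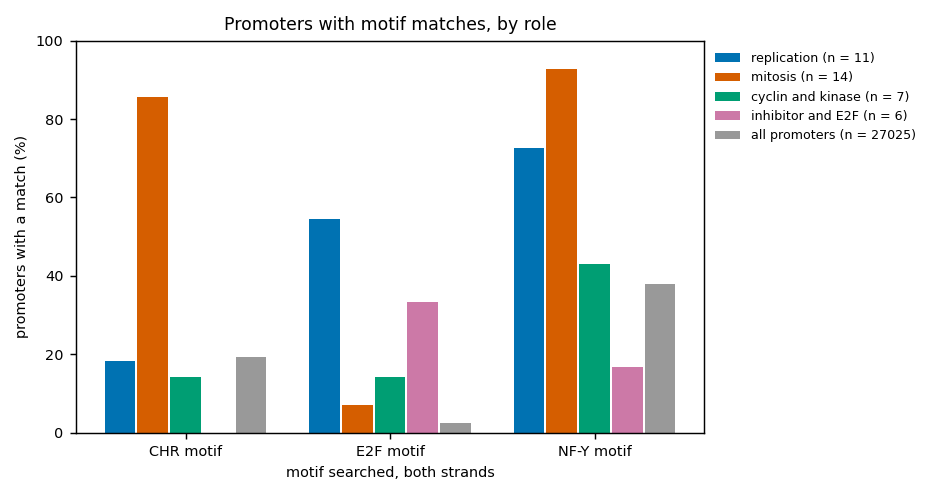
Share of promoters (percent, vertical axis) that hold each motif, for the 4 roles of members and for all promoters in the RefSeq table. The CHR bar of the mitosis members (85.7%) stands above that of all promoters (19.4%), and the E2F bar of the replication members (54.5%) above that of all promoters (2.32%).

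Across the 4 populations the members split into a high and a low pair. In 41 of 50 members every sheath and interfollicular library lay above every papilla and stem cell library, and in 0 members every one lay below. Among all 12774 genes tested, 18.4% had this order and 10% the reverse. The 41 members were 12 of 13 replication genes, all 18 mitosis genes, 7 of 11 cyclins and kinases and 4 of 8 inhibitors and regulators. The 9 members whose libraries overlapped were Pcna, Ccnd3, Ccne1, Cdk2, Cdk6, Cdkn1a, Cdkn1c, Cdkn2a and Cdkn2c. Of the members 49 were tested, and 48 differed among the populations by limma's F test at an adjusted p under 0.05, against 56.8% of all genes tested. The exception was Cdkn2c (adjusted p = 0.455). Cdkn2a was not tested, because it stayed under 1 FPKM in every library, with a highest value of 0.695 FPKM in stem cell library 4. Cdc20, Cdc6, Ccnb1 and Tyms were under 1 FPKM in every papilla and stem cell library, so they were tested only because of their sheath and interfollicular values. All of them are among the 41 members.

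**Figure D2:**
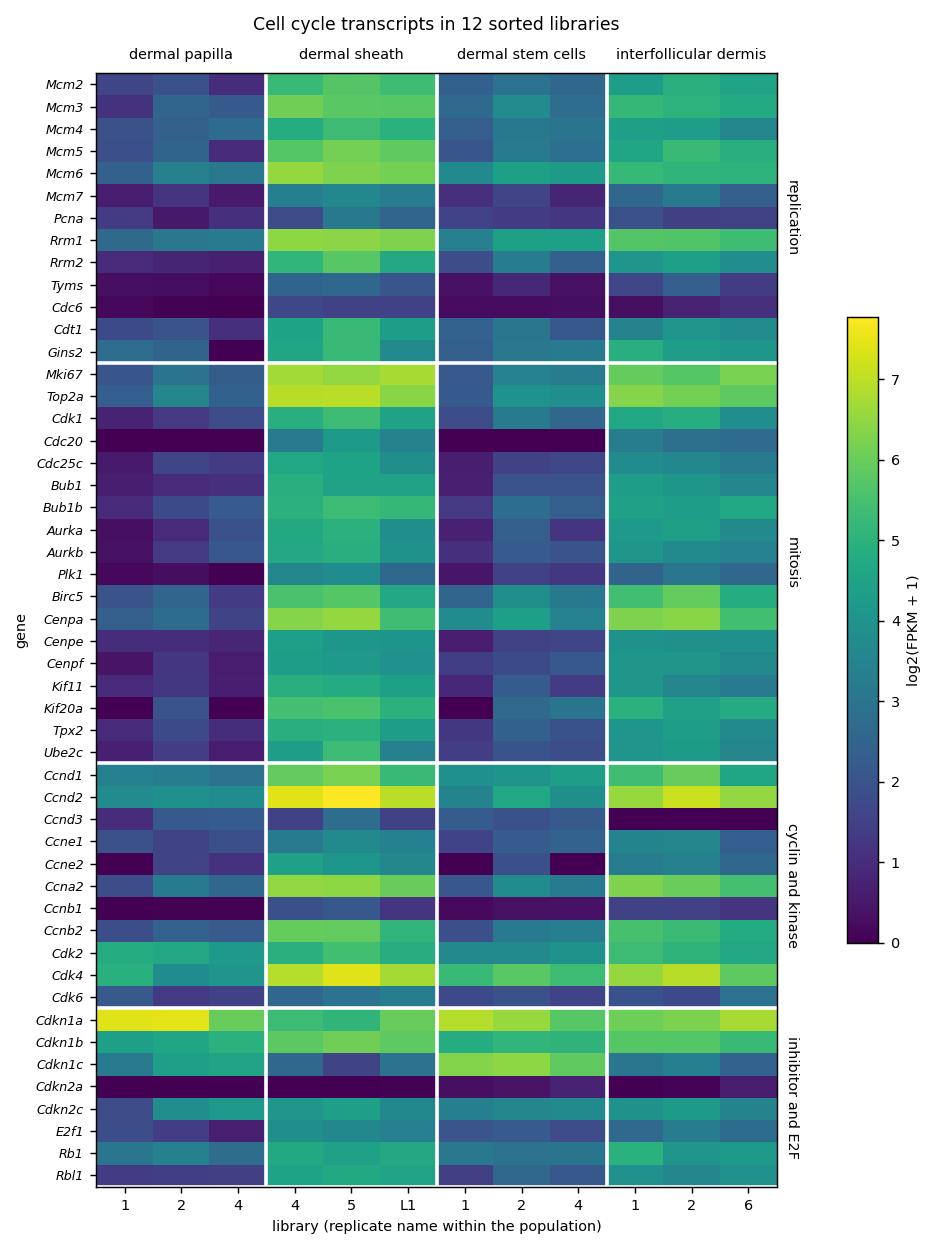
Level of the 50 members (rows, grouped by role) in the 12 libraries (columns), as log2(FPKM + 1). Lighter colour is a higher level. The sheath and interfollicular columns are lighter than the papilla and stem cell columns in most replication and mitosis rows, and Cdkn1c is lightest in the stem cell columns (58 to 86 FPKM).

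The replication genes were higher in sheath than in stem cells in all 13 cases, against 24.3% of all genes tested, with a median log2 fold change of 2.21 against 0.13 for all genes. The 13 include Cdc6 and Tyms, which were tested only because of their sheath and interfollicular values. All log2 fold changes are of FPKM + 1 and understate the change of low genes. Mcm2, a subunit of the MCM helicase that opens DNA, was listed at 2.11, 2.84 and 1.02 FPKM in papilla, 37.8, 51 and 40.4 FPKM in sheath, 4.32, 6.58 and 5.24 FPKM in stem cell and 19.5, 29.8 and 22.3 FPKM in interfollicular libraries. No library of one population overlapped another population for Mcm2. Its log2 fold change was 2.79 in sheath over stem cells (SE 0.27, limma adjusted p = 1.09e-05) and -1.96 in stem cells over interfollicular dermis (SE 0.27, adjusted p = 0.000168). Mcm6, another helicase subunit, stood at 4.17, 9.41 and 7.71 FPKM in papilla, 93.3, 75.9 and 69.7 FPKM in sheath, 11.8, 20.6 and 18 FPKM in stem cell and 36.2, 33.1 and 31.8 FPKM in interfollicular libraries. Its 4 populations were likewise separate, with sheath highest and papilla lowest. The other helicase subunits had sheath means from 9.73 ± 1.45 FPKM (Mcm7) to 60 ± 9.54 FPKM (Mcm5), with Mcm3 and Mcm4 between, and stem cell means from 1.31 ± 0.694 FPKM (Mcm7) to 7.89 ± 3.96 FPKM (Mcm3). Their papilla means ran from 0.758 ± 0.449 FPKM (Mcm7) to 4.2 ± 1.4 FPKM (Mcm4).

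Ribonucleotide reductase makes the building blocks of DNA, and its subunits followed the same order. Rrm1, the large subunit, was listed at 5.5, 7.44 and 8.04 FPKM in papilla, 86.2, 84.2 and 75.5 FPKM in sheath, 9.5, 20.3 and 19.8 FPKM in stem cell and 50.4, 49.5 and 40.5 FPKM in interfollicular libraries. Rrm2, the small subunit made during replication, stood at 0.917, 0.733 and 0.603 FPKM in papilla, 33.7, 52.5 and 25 FPKM in sheath, 2.56, 8.9 and 4.26 FPKM in stem cell and 16, 19.8 and 12.9 FPKM in interfollicular libraries. For both genes papilla libraries lay below all stem cell libraries, and stem cell libraries below all interfollicular libraries. Tyms, which makes thymidylate, averaged 0.194 ± 0.0699 FPKM in papilla, 4.39 ± 1.01 FPKM in sheath, 0.459 ± 0.3 FPKM in stem cells and 2.59 ± 1.28 FPKM in interfollicular dermis.

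Cdt1 and Cdc6 load the helicase onto origins. Cdt1 averaged 2.15 ± 0.969 FPKM in papilla, 26.2 ± 9.51 FPKM in sheath, 5.05 ± 2.05 FPKM in stem cells and 12.8 ± 2.73 FPKM in interfollicular dermis. Cdc6 averaged 0.0564 ± 0.0577 FPKM in papilla, 1.96 ± 0.194 FPKM in sheath, 0.2 ± 0.0179 FPKM in stem cells and 0.695 ± 0.435 FPKM in interfollicular dermis. Its stem cell and interfollicular libraries did not overlap, but their difference did not pass (log2 fold change -0.47, SE 0.25, limma adjusted p = 0.168). Gins2, part of the active helicase, was listed at 5.85, 4.72 and 0 FPKM in papilla, 23.3, 36.4 and 12.3 FPKM in sheath, 4.15, 7.64 and 8.09 FPKM in stem cell and 28.7, 19.1 and 16.4 FPKM in interfollicular libraries. Sheath over stem cells passed (log2 fold change 1.64, SE 0.61, limma adjusted p = 0.0458), but not when any 1 library of the 6 other than sheath L1 was left out (adjusted p = 0.0621 to 0.163). It also did not pass with median-of-ratios scaling (0.093), a pseudocount of 0.1 (0.247), no filter (0.113) or no trend (0.0505). Pcna, the sliding clamp of the replication fork, was low everywhere, at 1.63, 0.441 and 1.1 FPKM in papilla, 2.53, 7.78 and 4.82 FPKM in sheath, 1.93, 1.54 and 1.34 FPKM in stem cell and 2.79, 1.75 and 1.89 FPKM in interfollicular libraries. It was the replication gene whose libraries overlapped between the high and the low pair, and its reads may be shared with 2 annotated pseudogene copies. Sheath over stem cells passed for Pcna (log2 fold change 1.12, SE 0.35, limma adjusted p = 0.02) and did not pass without stem cell library 2 or 4 or sheath library 5 or L1 (adjusted p = 0.0518 to 0.0959).

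The mitosis genes had the largest median fold changes of the 4 roles between the high and the low populations. All 18 were higher in sheath than in stem cells (median log2 fold change 2.97), all 18 were lower in papilla than in sheath (-3.51), and all 18 were lower in stem cells (-2.23) and in papilla (-3.03) than in interfollicular dermis. The shares of all genes called in these 4 comparisons were 24.3%, 33.4%, 19.7% and 28.6% in the same order. The 18 include Cdc20, which was tested only because of its sheath and interfollicular values. Mki67, whose protein coats mitotic chromosomes and is lost in resting cells, lies on chromosome 7 from 135689784 to 135716450. It was listed at 3.17, 6.74 and 3.94 FPKM in papilla, 102, 90.7 and 108 FPKM in sheath, 3.55, 9.84 and 8.57 FPKM in stem cell and 60.3, 52.3 and 72.7 FPKM in interfollicular libraries. Every sheath library exceeded every other library, and papilla and stem cell libraries overlapped. Its log2 fold change was 3.70 in sheath over stem cells (SE 0.32, limma adjusted p = 4.8e-06) and -3.00 in stem cells over interfollicular dermis (SE 0.32, adjusted p = 2.24e-05). Top2a, which untangles DNA before chromosomes part, averaged 6.27 ± 3.64 FPKM in papilla, 109.8 ± 23.7 FPKM in sheath, 10.6 ± 6.05 FPKM in stem cells and 69.6 ± 12.7 FPKM in interfollicular dermis.

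Cdk1 is the kinase that drives entry into mitosis, and Cdc25c is a phosphatase that activates it. Cdk1 stood at 0.66, 1.43 and 2.4 FPKM in papilla, 28.8, 38.9 and 21.3 FPKM in sheath, 2.53, 8.39 and 4.95 FPKM in stem cell and 24.2, 27.7 and 12.9 FPKM in interfollicular libraries. Papilla libraries were all below stem cell libraries, though the difference did not pass (log2 fold change -1.28, SE 0.40, limma adjusted p = 0.0703) except with the replicate number as a block (adjusted p = 0.0389) and without papilla library 4 (0.0425) or stem cell library 1 (0.0455). Cdc25c averaged 1.39 ± 0.817 FPKM in papilla, 19.6 ± 5.63 FPKM in sheath, 1.51 ± 0.837 FPKM in stem cells and 10.7 ± 2.22 FPKM in interfollicular dermis.

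Cdc20, which activates the complex that ends mitosis, was listed at 0 in all 3 papilla and all 3 stem cell libraries. It stood at 8.51, 17.9 and 10.1 FPKM in sheath and at 8.8, 6.37 and 5.6 FPKM in interfollicular libraries, and no fold is given against the populations listed at 0. Kif20a, a motor of the late spindle, was listed at 0, 3 and 0 FPKM in papilla, 42.6, 45.2 and 30 FPKM in sheath, 0, 5.42 and 7.05 FPKM in stem cell and 30.5, 20.9 and 26.7 FPKM in interfollicular libraries. Plk1, a kinase of spindle assembly, was listed at 0.126, 0.221 and 0 FPKM in papilla, 10.8, 12.4 and 5.24 FPKM in sheath, 0.388, 1.85 and 1.4 FPKM in stem cell and 4.53, 7.21 and 4.97 FPKM in interfollicular libraries. Exact zeros in such a table can be failed estimates, and 1618 of the genes tested had at least 1.

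Among kinetochore and checkpoint genes, Cenpa, the histone variant that marks centromeres, was highest in level, at 3.96 ± 1.88 FPKM in papilla, 71.5 ± 26.9 FPKM in sheath, 14.2 ± 5.16 FPKM in stem cells and 66.9 ± 22.2 FPKM in interfollicular dermis. Cenpe, a kinetochore motor, varied little within interfollicular dermis (14.2 ± 0.387 FPKM) and stood at 0.945 ± 0.147 FPKM in papilla, 17.2 ± 2.37 FPKM in sheath and 1.48 ± 0.855 FPKM in stem cells. Cenpf, another kinetochore protein, averaged 0.732 ± 0.555 FPKM in papilla, 17.2 ± 2.58 FPKM in sheath, 2.5 ± 0.841 FPKM in stem cells and 14.8 ± 2.6 FPKM in interfollicular dermis. The checkpoint genes Bub1 and Bub1b followed the same order. Bub1 averaged 0.862 ± 0.263 FPKM in papilla, 23.7 ± 4.29 FPKM in sheath, 2.19 ± 1.37 FPKM in stem cells and 15.4 ± 4.26 FPKM in interfollicular dermis. Bub1b averaged 2.34 ± 1.38 FPKM in papilla, 34.7 ± 4.4 FPKM in sheath, 3.85 ± 2.28 FPKM in stem cells and 21.6 ± 2.46 FPKM in interfollicular dermis. Sheath means of the spindle and chromosome kinases Aurka and Aurkb, the Aurka activator Tpx2, the spindle motor Kif11, the ubiquitin-conjugating enzyme Ube2c and the chromosomal passenger Birc5 ran from 22.7 ± 15.4 FPKM (Ube2c) to 40.7 ± 14.2 FPKM (Birc5). Stem cell means of these genes ran from 2.03 ± 1.87 FPKM (Aurka) to 8.75 ± 4.46 FPKM (Birc5), and interfollicular means from 11.6 ± 4.11 FPKM (Kif11) to 43.1 ± 16.5 FPKM (Birc5).

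**Figure D3:**
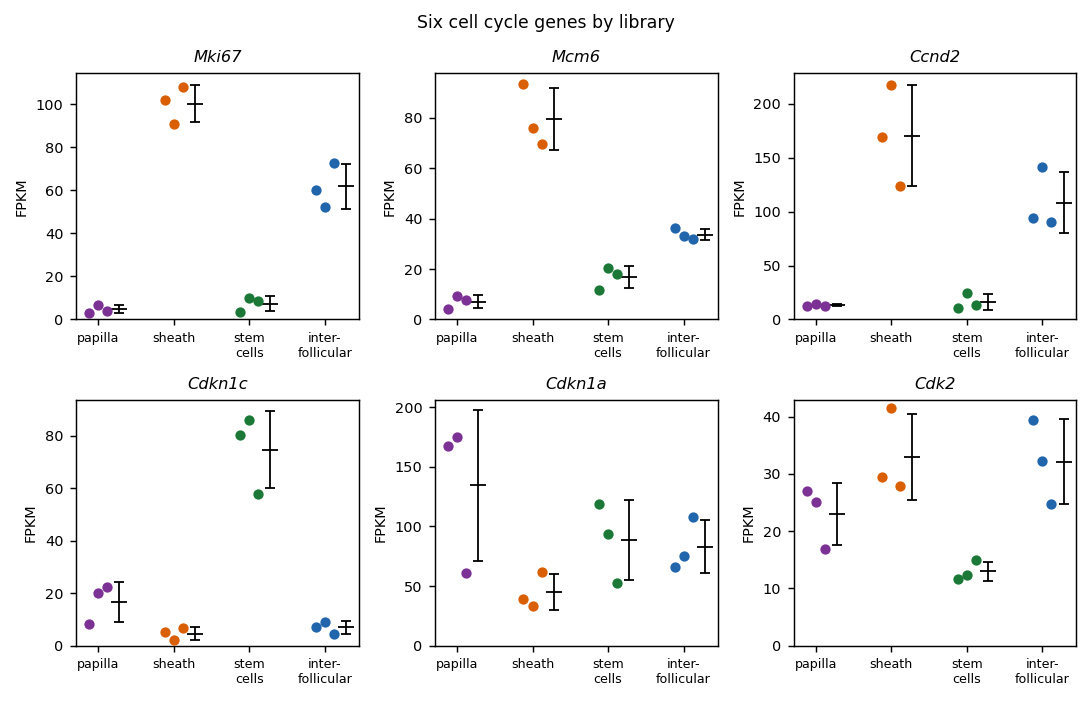
FPKM (linear axis from 0) of 6 members, with a point for each papilla, sheath, stem cell and interfollicular library from left to right and the mean ± SD of 3 libraries beside them. Mki67 lies between 90.7 and 108 FPKM in sheath and between 3.55 and 9.84 FPKM in stem cell libraries, while Cdkn1c is highest in stem cell libraries (58 to 86 FPKM).

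Among cyclins and kinases, 10 of 11 were higher in sheath than in stem cells, against 24.3% of all genes, and 9 of 11 lower in papilla than in sheath, against 33.4% of all genes. Both counts include Ccnb1, which was tested only because of its sheath and interfollicular values. Ccnd2, a D-type cyclin on chromosome 6 (127125162 to 127152188), was listed at 12.5, 14 and 12.8 FPKM in papilla, 169.7, 218 and 124 FPKM in sheath, 10.2, 24.5 and 13.5 FPKM in stem cell and 93.9, 141 and 90.3 FPKM in interfollicular libraries. Its log2 fold change was 3.38 in sheath over stem cells (SE 0.31, limma adjusted p = 6.19e-06). Ccnd1, its relative, stood at 9.73, 8.56 and 6.56 FPKM in papilla, 59, 73.2 and 36.8 FPKM in sheath, 13.9, 15.4 and 19.5 FPKM in stem cell and 40.8, 61.3 and 23.5 FPKM in interfollicular libraries. The ratio of Ccnd2 to Ccnd1 was 1.29 to 1.95 in papilla, 2.88 to 3.38 in sheath, 0.69 to 1.59 in stem cell and 2.3 to 3.83 in interfollicular libraries. Sheath and stem cell ratios did not overlap, and no test was run on them. Ccnd3, the remaining D-type cyclin, did not pass in sheath over stem cells or in papilla over sheath. It was listed at 0.983, 3.57 and 3.83 FPKM in papilla, 1.82, 5.91 and 1.89 FPKM in sheath, 3.8, 2.78 and 3.62 FPKM in stem cell libraries and at 0 in all 3 interfollicular libraries. Its reads may be shared with 1 pseudogene copy and with an overlapping gene on the other strand.

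The A and B cyclins and Ccne2 split into the same high and low pair as most replication and mitosis genes, while Ccne1 overlapped between the pairs. Ccna2, the cyclin of replication and early mitosis, stood at 2.55, 8.47 and 5.14 FPKM in papilla, 90, 86 and 61.4 FPKM in sheath, 3.35, 12.6 and 8.48 FPKM in stem cell and 76.3, 62.7 and 42.9 FPKM in interfollicular libraries. Ccnb2, a mitotic cyclin, averaged 3.58 ± 0.918 FPKM in papilla, 51 ± 14.9 FPKM in sheath, 6.74 ± 3.46 FPKM in stem cells and 36.7 ± 9.41 FPKM in interfollicular dermis. Ccnb1, the other mitotic cyclin here, was listed at 0, 0.03 and 0.0315 FPKM in papilla, 2.73, 3.43 and 1.32 FPKM in sheath, 0.156, 0.28 and 0.3 FPKM in stem cell and 1.85, 1.81 and 1.23 FPKM in interfollicular libraries. Ccne1, which acts before replication, averaged 2.51 ± 0.453 FPKM in papilla, 9.98 ± 1.67 FPKM in sheath, 3.38 ± 1.29 FPKM in stem cells and 8.3 ± 3.71 FPKM in interfollicular dermis. Interfollicular library 6 (4.03 FPKM) lay below stem cell library 4 (4.44 FPKM). The lower Ccne1 level in stem cells than in interfollicular dermis did not pass in 9 of 14 alternatives. Ccne2 was listed at 0, 2.05 and 1.21 FPKM in papilla, 20.7, 15.9 and 11.1 FPKM in sheath, 0, 2.71 and 0 FPKM in stem cell and 8.74, 9.56 and 5.24 FPKM in interfollicular libraries.

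The kinases of the growth phase differed among themselves. Cdk4 was listed at 29.7, 12.7 and 15.6 FPKM in papilla, 119, 168 and 106 FPKM in sheath, 37.2, 54.2 and 39.1 FPKM in stem cell and 92.1, 122 and 57.1 FPKM in interfollicular libraries. Cdk2, the partner of E and A cyclins, stood at 27, 25.1 and 16.9 FPKM in papilla, 29.5, 41.5 and 27.9 FPKM in sheath, 11.7, 12.3 and 14.9 FPKM in stem cell and 39.5, 32.3 and 24.7 FPKM in interfollicular libraries. Cdk2 was thus lowest in stem cells, below every library of the other populations. It was higher in sheath than in stem cells (log2 fold change 1.27, SE 0.25, limma adjusted p = 0.00143) and lower in stem cells than in interfollicular dermis (-1.23, SE 0.25, adjusted p = 0.00219). Papilla over stem cells did not pass (0.76, SE 0.25, adjusted p = 0.077). An exon of Cdk2 overlaps by 34 bases that of Pmel, a pigment gene on the other strand, which averaged 121 ± 84.5 FPKM in papilla, was listed at 0 in all sheath libraries and averaged 13.8 ± 8.48 FPKM in stem cells and 92.1 ± 76.7 FPKM in interfollicular dermis. Its part in the Cdk2 values was not tested. The ratio of Cdk4 to Cdk2 was 0.506 to 1.1 in papilla, against 3.81 to 4.05 in sheath, 2.62 to 4.4 in stem cell and 2.31 to 3.77 in interfollicular libraries. Cdk6, the relative of Cdk4, averaged 2.27 ± 1.05 FPKM in papilla, 6.87 ± 1.82 FPKM in sheath, 2.37 ± 0.413 FPKM in stem cells and 3.87 ± 2.23 FPKM in interfollicular dermis. Its higher level in sheath than in stem cells (log2 fold change 1.21, SE 0.35, limma adjusted p = 0.0134) did not pass without sheath library L1 (adjusted p = 0.0544).

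The inhibitors did not share one order. Cdkn1c, the Cip/Kip inhibitor p57 on chromosome 7 (143458339 to 143461059), was listed at 8.11, 20 and 22.2 FPKM in papilla, 5.1, 1.99 and 6.76 FPKM in sheath, 80.2, 86 and 58 FPKM in stem cell and 7.22, 9.16 and 4.5 FPKM in interfollicular libraries. Every stem cell library exceeded every other library. Its log2 fold change was -2.19 in papilla over stem cells (SE 0.41, limma adjusted p = 0.00702), -3.84 in sheath over stem cells (SE 0.41, adjusted p = 2.03e-05) and 3.28 in stem cells over interfollicular dermis (SE 0.41, adjusted p = 7.81e-05). It was the single tested member that passed as lower in sheath than in stem cells, though Cdkn1a also passed with median-of-ratios scaling (-1.15, adjusted p = 0.0362) and without stem cell library 4 (-1.27, adjusted p = 0.0371). Papilla over sheath also passed (1.66, SE 0.41, adjusted p = 0.00539). Papilla over interfollicular dermis passed narrowly (1.09, SE 0.41, adjusted p = 0.0493) and did not pass without papilla library 2 or 4 or without any 1 interfollicular library (adjusted p = 0.0523 to 0.155).

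Cdkn1a, the inhibitor p21 induced by p53, was listed at 167, 175 and 61.2 FPKM in papilla, 39.2, 33.2 and 61.8 FPKM in sheath, 119, 93.5 and 52.9 FPKM in stem cell and 66, 74.9 and 108 FPKM in interfollicular libraries. Papilla library 4 and sheath library L1 differed by less than 1 FPKM, so these groups overlapped. Papilla over sheath passed (log2 fold change 1.47, SE 0.42, limma adjusted p = 0.0112) and did not pass without papilla libraries 1 and 2 together (0.49, adjusted p = 0.437). These are the libraries with the most Krt10, and its part in the Cdkn1a values was not tested. Cdkn1b, the inhibitor p27, was higher in sheath (59.6 ± 6.76 FPKM) than in stem cells (31.1 ± 3.49 FPKM), with a log2 fold change of 0.92 (SE 0.22, limma adjusted p = 0.00454), and averaged 24.3 ± 5.46 FPKM in papilla and 46.9 ± 8.49 FPKM in interfollicular dermis. Cdkn2c, an INK4 inhibitor, averaged 10.7 ± 7.42 FPKM in papilla, 15.6 ± 4.3 FPKM in sheath, 10.7 ± 1.32 FPKM in stem cells and 14.2 ± 3.83 FPKM in interfollicular dermis and passed in no comparison. Cdkn2a, another INK4 locus, was listed at 0 in all papilla libraries, at 0, 0 and 0.0359 FPKM in sheath, at 0.247, 0.327 and 0.695 FPKM in stem cell and at 0, 0.0553 and 0.517 FPKM in interfollicular libraries.

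The E2F and retinoblastoma members were on the side of the replication genes. Rbl1, a relative of the retinoblastoma protein, stood at 1.54, 1.69 and 1.78 FPKM in papilla, 21.8, 25.6 and 22.2 FPKM in sheath, 1.78, 5.09 and 3.38 FPKM in stem cell and 14.2, 11.2 and 14.3 FPKM in interfollicular libraries. Its log2 fold change was 2.52 in sheath over stem cells (SE 0.27, limma adjusted p = 2.11e-05). Rb1, the retinoblastoma gene, averaged 7.59 ± 1.91 FPKM in papilla, 23.7 ± 2.35 FPKM in sheath, 7.12 ± 0.611 FPKM in stem cells and 21.1 ± 7.98 FPKM in interfollicular dermis. E2f1, an activator of replication genes, averaged 1.65 ± 1.02 FPKM in papilla, 11.5 ± 2.11 FPKM in sheath, 3.1 ± 0.645 FPKM in stem cells and 6.56 ± 1.81 FPKM in interfollicular dermis. Between stem cells and interfollicular dermis, the E2f1 difference did not pass in 12 of 14 alternatives.

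The question the study's title raises is how papilla and sheath differ from stem cells. In sheath against stem cells, 45 of 49 tested members were higher and 1 lower, against 24.3% and 19.6% of all genes tested, with a median log2 fold change of 2.31 for the members and 0.13 for all genes. Without the 4 members that were low in papilla and stem cells, 41 of 45 were higher. Ccnd3, Cdkn1a and Cdkn2c did not pass. Without stem cell libraries 1 and 2, which held the most immune transcripts, 38 were higher and 1 lower.

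In papilla against sheath, 44 members were lower and 2, Cdkn1a and Cdkn1c, higher, against 33.4% and 16.4% of all genes. The median log2 fold change was -3.22 for the members and -0.36 for all genes. The comparisons of sheath with stem cells and of papilla with sheath share the sheath libraries. Without the 4 low members, 40 of 45 were lower.

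In papilla against stem cells, 8 of 49 members were lower and 0 higher, against 6.38% and 2.31% of all genes. The fit behind this count did not pair libraries by replicate number. The median log2 fold change was -0.55 for the members and -0.25 for all genes. At an unadjusted limma p under 0.05, 17 members were lower and 1, Cdk2, higher, against 19% and 6.25% of all genes. The 8 were Mcm2, Mcm6, Rrm1 and Rrm2 of replication, Cenpa and Cenpf of mitosis, Cdk4 and Cdkn1c. Their log2 fold changes ran from -2.19 (Cdkn1c) to -1.03 (Cenpf), with -1.71 for Rrm2 (SE 0.36, limma adjusted p = 0.0128). Of 15 alternatives, Cdk4 did not pass in 13, Cenpf in 12, Rrm1 in 8, Cenpa in 7, Mcm6 in 6, Mcm2 in 5, Rrm2 in 3 and Cdkn1c in 2. In 18 members every papilla library lay below every stem cell library and in 1, Cdk2, above, against 23.5% and 6.49% of all genes. The count that passed was 4 without papilla library 1, 2 without stem cell library 2, 3 without stem cell library 4 and 0 without stem cell libraries 1 and 2 together, and Cdk2 passed as higher without papilla library 4 (log2 fold change 0.96, limma adjusted p = 0.0313). With values rescaled by median of ratios it was 5 lower and 1, again Cdk2, higher (0.99, adjusted p = 0.0291). The replicate number as a block, which also joined interfollicular libraries 1 and 2, gave 10 lower members. With it Birc5, Cdk1 and Cdt1 passed as well (limma adjusted p = 0.0309 to 0.0452), and Cenpf did not (0.0658).

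**Figure D4:**
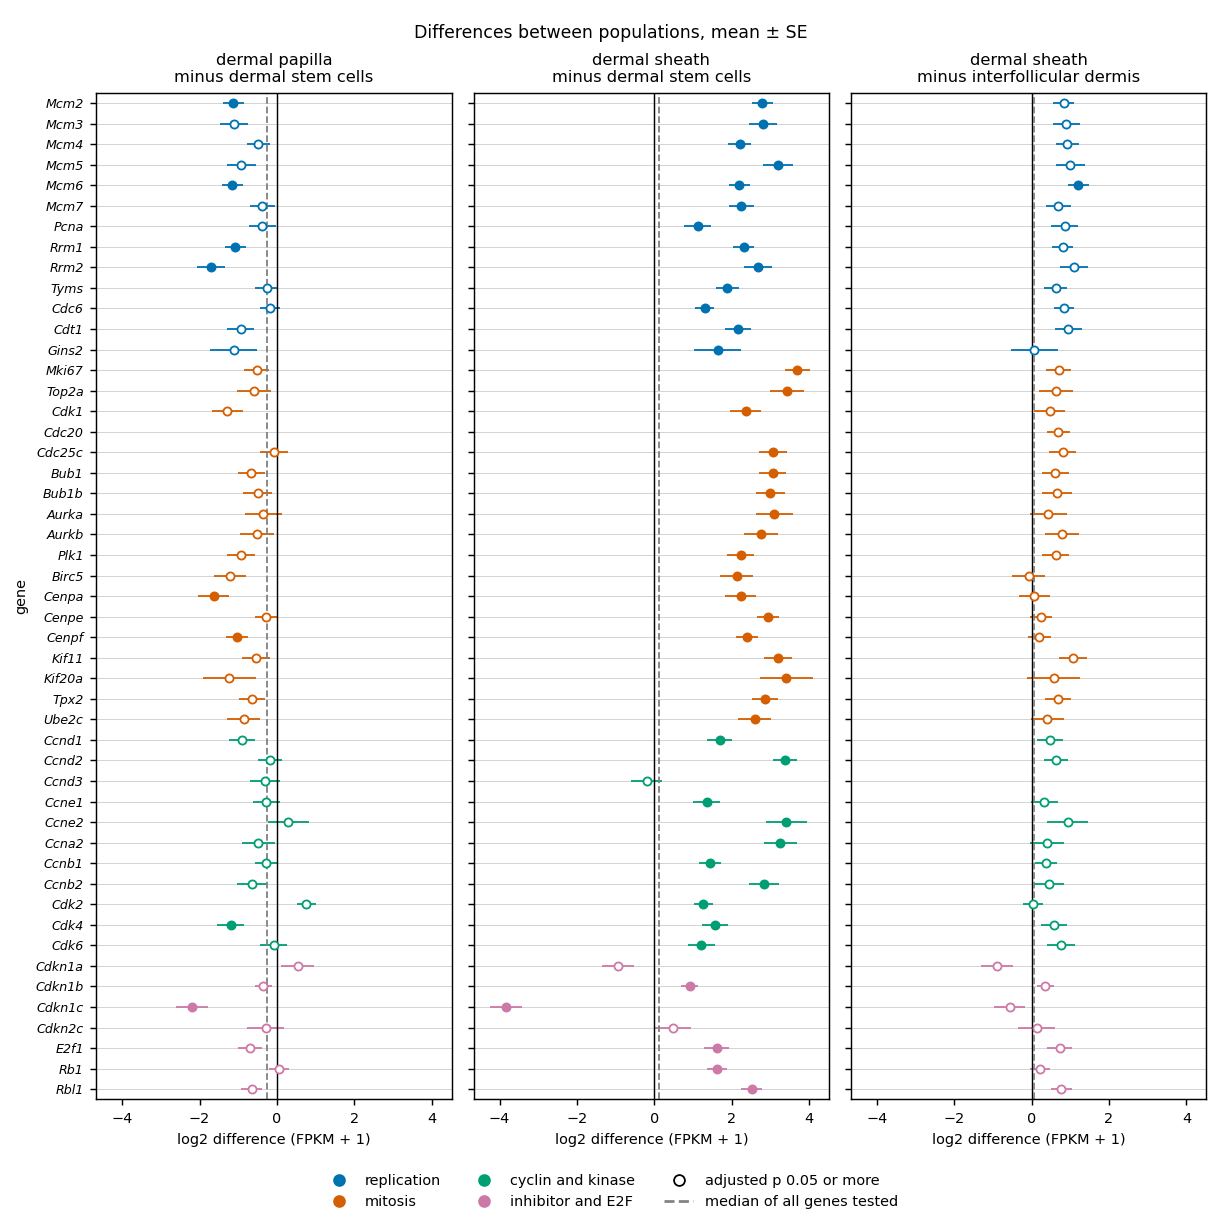
Log2 fold change ± SE of the tested members (rows, coloured by role) in papilla against stem cells, sheath against stem cells and sheath against interfollicular dermis, with filled points for those that passed, open points for the rest and a dashed line at the median of all genes. Cdc20 and Ccnd3 have no point against a population in which they are listed at 0. Points for sheath against stem cells lie above 0 for most members (median 2.31), while those for papilla against stem cells have a median of -0.55.

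Against interfollicular dermis the stem cells had 40 members lower and 2 higher, Ccnd3 and Cdkn1c, where 19.7% and 17.9% of all genes passed. Ccnd3 was listed at 0 in all 3 interfollicular libraries, so its calls here rest on zeros that can be failed estimates. The median log2 fold change was -1.75 for the members and -0.14 for all genes. Without the 4 low members, 37 of 45 were lower. Without stem cell libraries 1 and 2 the counts were 28 lower and 2 higher. The 7 that did not pass were Cdc6, Cdk6, Cdkn1a, Cdkn1b, Cdkn2c, Gins2 and Pcna. Of those that passed as lower, Mcm6, Cdt1, Ccnd1, Ccne1, Cdk4 and E2f1 did not pass once at least 1 single library was left out. In papilla against interfollicular dermis, 41 members were lower and 2 higher, again Ccnd3 and Cdkn1c, against 28.6% and 13.7% of all genes. Its median was -2.54, against -0.32 for all genes, and without the 4 low members 38 of 45 were lower.

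Few members passed between sheath and interfollicular dermis. Of 49 members 2 were higher in sheath and 0 lower, against 0.939% and 1.32% of all genes. At an unadjusted limma p under 0.05, 19 were higher and 0 lower, against 8.82% and 6.65% of all genes. The 2 were Ccnd3, which is listed at 0 in interfollicular dermis, and Mcm6 (log2 fold change 1.21, SE 0.27, limma adjusted p = 0.0424). Neither held throughout: leaving out any 1 of the 6 libraries compared ended the Mcm6 call (adjusted p = 0.0807 to 0.138), and the Ccnd3 call ended without sheath library 5 or any 1 interfollicular library (0.0574 to 0.116). In 22 of 49 members every sheath library lay above every interfollicular library and in 1, Cdkn1a, below, against 12.7% and 8.96% of all genes. The median log2 fold change was 0.64 for the members, 0.86 for the replication genes and 0.62 for the mitosis genes, against 0.05 for all genes.

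In stem cells, sheath and interfollicular dermis, the same library was often the lowest of its population among the members. How often all genes tested were lowest in each library was not counted. Stem cell library 1 was lowest in 16 of the 17 mitosis genes whose 3 stem cell values were not tied and in 8 of 13 replication genes, and stem cell library 2 was highest in 13 of 17 and 10 of 13. Library 1 is also the one with the highest immune sum (1539 FPKM). Sheath library L1 was lowest in 14 of 18 mitosis genes and 9 of 13 replication genes, and interfollicular library 6 in 14 of 18 and 8 of 13. These 3 libraries had the highest relative depths, 1.41 for stem cell library 1, 1.52 for sheath L1 and 1.93 for interfollicular 6, on a scale where stem cell library 2 is 1. The summed FPKM of all entries was the lowest of its population in sheath L1 (190386) and interfollicular 6 (181683), but the highest in stem cell library 1 (262695). The part of depth and of these sums was not tested. In papilla the roles differed. Library 4 was lowest in 8 of 13 replication genes, and library 1 in 10 of 16 mitosis genes without ties.

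**Figure D5:**
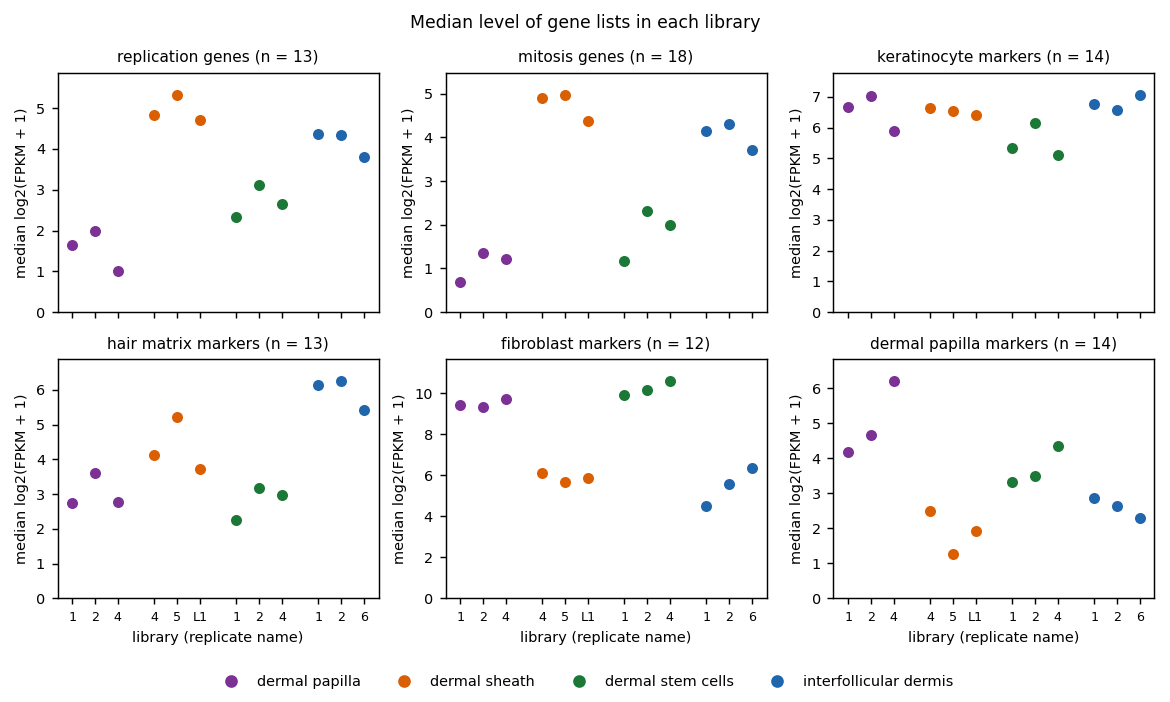
Median log2(FPKM + 1) of the replication and mitosis members and of 4 marker lists in each library (points), with papilla, sheath, stem cell and interfollicular libraries from left to right. The mitosis median is 4.38 to 4.97 in sheath libraries and 1.18 to 2.31 in stem cell libraries, where library 1 is lowest, and the fibroblast marker median is lower in sheath and interfollicular libraries than in papilla and stem cell libraries.

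Other genes of the same processes were also listed, with earlier results of these data known. Any gene of these lists under 1 FPKM in every papilla and stem cell library was tested only because of its sheath and interfollicular values. No count without such genes was made. Of 51 other replication genes, 48 were higher in sheath than in stem cells and 0 lower, against 24.3% and 19.6% of all genes. Of the same 51, 41 were lower in stem cells than in interfollicular dermis and 0 higher, against 19.7% and 17.9% of all genes. In papilla against stem cells 1 was lower, the clamp loader gene Rfc2, against 6.38% of all genes. Of 63 other mitosis genes tested, 62 were higher in sheath than in stem cells, against 24.3% of all genes, and 4 (Cdc25b, Cdca2, Incenp and Ncapd2) were lower in papilla than in stem cells, a share near the 6.38% of all genes. Their most abundant gene, Smc4 of the condensin complex, averaged 18 ± 6.29 FPKM in papilla, 125 ± 24.5 FPKM in sheath, 24.8 ± 9.96 FPKM in stem cells and 92.5 ± 36.5 FPKM in interfollicular dermis. The other abundant genes of these lists were Cdca3, Pttg1 and Cdca8 for mitosis and Tipin, Dtymk, Prim1 and Orc6 for replication. All 7 were higher in sheath than in stem cells.

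The 34 tested regulators of cycle entry and exit were mixed, with 19 higher and 2 lower in sheath than in stem cells, against 24.3% and 19.6% of all genes. The 2 were the INK4 inhibitors Cdkn2b, at 2.75 ± 0.759 FPKM in sheath and 8.65 ± 2.77 FPKM in stem cells, and Cdkn2d, at 7.94 ± 1.08 FPKM in sheath and 19.8 ± 3.68 FPKM in stem cells. Cdkn2b was the single listed regulator lower in papilla than in stem cells (-1.23, SE 0.35, limma adjusted p = 0.0451), and it was also higher in stem cells than in interfollicular dermis (log2 fold change 1.03, SE 0.35, limma adjusted p = 0.0339). In papilla against sheath, Cdkn2d and the antiproliferative gene Btg1 were higher and 21 regulators lower, against 16.4% and 33.4% of all genes. In papilla against interfollicular dermis, Btg2 was higher and 18 were lower, against 13.7% and 28.6% of all genes. Btg2, Gadd45a, Myc and Mdm2 were the most abundant, and none of these 4 passed in sheath over stem cells.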

How the data were processed

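Skin was digested with enzymes, cells were sorted, and RNA taken up on magnetic beads went into SOLiD sequencing libraries, per the labels' protocols. The authors deposited 1 table of FPKM values, with 24692 entries and a column for each of the 12 libraries. TopHat2 2.0.13, SAMtools, Cufflinks 2.2.1 and the mm10 build are named in the submitters' processing notes without roles, and the annotation and the use of strand in counting are not given in the sources used here. Read counts were not recovered from these values, so depth is unknown in absolute terms and counting error is not given. A relative depth, the inverse of the commonest ratio of values under 0.3 FPKM to those of stem cell library 2, ran from 0.634 to 1.93, and 26.0% to 35.6% of those genes stood at that ratio.

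The test covered the 12774 genes that reached 1 FPKM in 3 or more of the 12 libraries. The model, fitted by limma 3.58.1 (R 4.3.3) to log2(FPKM + 1), had 4 population means with a mean-variance trend (8 residual and 4.61 prior degrees of freedom). P-values are two-sided, from moderated tests adjusted by Benjamini-Hochberg over all genes tested in a comparison, with a threshold of 0.05. Other processing was done in Python 3.11.15 with pandas 2.3.3. The members, lists and tests were chosen with earlier results of these data known. All members are named. Of other lists, the text names the 4 most abundant genes of each, genes that ran against their list, and markers that define a population, and genes outside this rule were chosen after their values were seen. One marker, Adgre1, was not found by symbol. Alternatives were another scaling, pseudocount, filter, variance prior, set of libraries, a replicate block and leaving out libraries.

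Papilla and stem cell libraries share the numbers 1, 2 and 4. Same-numbered pairs deviated together from their population means (correlations across genes of 0.306, 0.241 and 0.389). The numbers were therefore taken to pair them, but in the replicate block alone. The main fit has no block, so its papilla against stem cells p-values ignore this pairing. Gene positions are those of GRCm38.p6 by Entrez identifier, which matched all 50 members. 5 members (Pcna, Tyms, Ccnd3, Ccnb1 and Ccnb2) have an annotated pseudogene copy, and 13 have an exon that overlaps another protein-coding gene on the opposite strand (Mcm7, Gins2, Ccnd1, Ccnd3, Ccne2, Ccna2, Cdk2, Cdk4, Cdc20, Cdc25c, Kif20a, Ube2c and Rb1), so reads of these genes may be split or shared.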

Additional observations from a re-analysis of the deposited data

How the results depend on the processing

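Of 187 member fold changes that passed, 153 passed under every alternative run on them, and 0 of 2436 alternative values changed direction, while 149 no longer passed. Median-of-ratios scaling moved the median log2 fold change of all genes by 0.178 in papilla over stem cells, -0.167 in sheath over stem cells, 0.351 in papilla over sheath, 0.121 in stem cells over interfollicular dermis and 0.294 in papilla over interfollicular dermis. The share of all called genes that were higher then became 46.7% in place of 26.6% in papilla over stem cells, 44.8% in place of 55.4% in sheath over stem cells, 51.9% in place of 32.9% in papilla over sheath and 52.7% in place of 32.3% in papilla over interfollicular dermis.

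For papilla against stem cells, the 8 lower members became 5 with that scaling (and 1 higher) and 5 with no filter. When only these populations were fitted, 1 stayed lower, the inhibitor Cdkn1c, and no replication, mitosis, cyclin or kinase member passed. Without stem cell libraries 1 and 2, the log2 fold changes of the 8 ran from -1.84 (Cdkn1c) to -1.07 (Cdk4). Without papilla libraries 1 and 2, those of Mcm6, Rrm1, Rrm2, Cdk4, Cenpf and Cdkn1c ran from -1.83 (Rrm2) to -0.89 (Rrm1). With the replicate block, in 9 libraries, 10 members were lower, against 4 with no replicate block in the same libraries. The block also joined interfollicular libraries 1 and 2 to the same numbers, so all its results rest partly on that pairing. The block was not fitted for comparisons with sheath, where it would rest on 1 sheath library, number 4. Numbers shared with interfollicular dermis did not pair (correlations of -0.191 and 0.05 with stem cells, -0.146 and 0.041 with papilla), and under the block Cdkn1c in papilla over interfollicular dermis (adjusted p = 0.118) and E2f1 in stem cells over interfollicular dermis (0.153) did not pass, while Cdkn1a in papilla over interfollicular dermis (1.19, adjusted p = 0.00567) and Cdkn1b in stem cells over interfollicular dermis (-0.82, 0.0221) did. Sheath against stem cells had 2 lower members with the scaling and with no filter, in place of 1. With the scaling the added member was Cdkn1a. With no filter no member tested before was added, and Cdkn2a, under 1 FPKM in every library, entered the test. Papilla against sheath had 1 higher without papilla libraries 1 and 2, in place of 2. Papilla against interfollicular dermis had 1 higher with a pseudocount of 0.1, no filter, no trend or only these populations, in place of 2. Sheath against interfollicular dermis had 1 higher with the scaling, the pseudocount of 0.1 or no trend and 0 with no filter, in place of 2. The cause was not tested.

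Leaving out 1 library at a time gave these ranges of members: papilla against stem cells 0 to 1 higher and 2 to 8 lower; sheath against stem cells 43 to 44 higher and 1 to 2 lower; papilla against sheath 2 higher and 44 to 45 lower; stem cells against interfollicular dermis 2 higher and 35 to 40 lower; papilla against interfollicular dermis 1 to 2 higher and 41 to 42 lower; sheath against interfollicular dermis 0 to 1 higher and 0 lower. The F test gave 45 to 48. Leaving out libraries 1 and 2 of a population leaves 1 there, which is then assumed to vary like the others; these 2 alternatives were chosen after seeing the data. Values near 0 FPKM are the least certain, as reads behind them are unknown.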
